A study of Mus musculus with 53 samples.

Results

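Sciatic nerves of mice that had received streptozotocin (STZ) before dietary reversal (DR) were compared with nerves of mice that went through the same diets without STZ. The samples were chosen by their labels for diet, STZ treatment, DR and age, which gave 6 HFD-STZ-DR and 7 HFD-DR samples, 13 of the 53 in the series. The labels mark DR apart from the diet, which they give as HFD in both groups. All came from male C57BL/6J mice at 24 weeks of age. Both groups ate a high-fat diet (HFD, 60% of kcal from fat) from 5 weeks of age and went back to a control diet at 16 weeks, for 8 weeks. The HFD-STZ-DR mice had also been injected intraperitoneally at 12 weeks of age with 75 mg/kg STZ and, 3 days later, with 50 mg/kg. Values are set beside those of 24-week mice on the control diet throughout (SD, 8 samples), on continued HFD (7 samples) and on continued HFD after the same STZ doses (HFD-STZ, 8 samples), and of 7 HFD and 5 HFD-STZ samples at 16 weeks. The labels number no animals, so p-values measure the spread between these samples, and no blood glucose value is tied to a sample here.

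STZ is a glucose analogue that enters pancreatic beta cells and kills them, and low doses on top of a fat-rich diet leave a mouse with obesity and too little insulin. Most RNA of the sciatic nerve comes from Schwann cells, which wrap axons in a membrane rich in cholesterol and build much of that cholesterol themselves. The cell bodies of the neurons lie outside the nerve, while endothelial cells, macrophages, fibroblasts and the fat and muscle that adjoin the nerve add their own transcripts to a dissected piece.

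Each sample had 1 normalised log2 value per gene for 49568 genes, and 18192 genes had a mean of at least the log2 of 10 over the 13 samples and no value above 22 in the series. The values are not counts and the files used here give no read number per sample or gene, so no counting interval is given. Correlations between samples over the genes tested ran from 0.948 to 0.993 in 78 pairs, with medians of 0.987 within HFD-STZ-DR, 0.985 within HFD-DR and 0.983 between the groups, and 0 pairs were identical. All 20 myelinating Schwann cell genes were measured, and Pmp22, a protein of compact myelin, had log2 values of 19.81 or more in each of the 13 samples, as the labelled tissue would have. HFD-STZ-DR replicate 4 and HFD-DR replicate 5 stood apart from the others. On the first principal component, which held 50.2% of the variance, they lay at 81.2 and 62.9, and their mean log2 values over 14 skeletal muscle markers were 15.07 and 14.5. The values of a list without replicate 4 of HFD-STZ-DR, and without both, are therefore given beside it.

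Between HFD-STZ-DR and HFD-DR nerves, all adipocyte and skeletal muscle markers tested and most genes of fatty acid and triglyceride synthesis and of the acute phase had lower means after STZ, and all genes of cholesterol synthesis had slightly higher means, but no gene passed the threshold. By limma, 0 of 18192 genes had an adjusted p under 0.05, the smallest being adjusted p = 0.999, and 651 genes (3.58%) had an unadjusted p under 0.05. Of these, 382 (2.1% of the genes tested) were lower and 269 (1.48%) were higher in HFD-STZ-DR. Without any difference, a share of 0.05 of all genes would on average have such a p, so the 3.58% is no excess. The median 95% interval reached 0.29 to either side of its difference on the log2 scale, and for 16579 genes (91.1%) the whole interval lay between -1 and 1. A difference beyond -1 or 1 was estimated for 184 genes, 184 of them lower and 0 higher in HFD-STZ-DR. Of the 184, 12 were skeletal muscle markers, 8 were adipocyte markers and 142 were in none of the gene lists used here. With the mean adipocyte marker value of each sample as a covariate 33 genes lay beyond -1 or 1, 16 of them higher, and with that of muscle 24 did. Below, a difference is HFD-STZ-DR minus HFD-DR in log2 units, and a list is described by how many of its genes were lower or higher and how many had an unadjusted p under 0.05, to be read against 52% of all genes below 0, 48% above, and the shares just given. The shares of all genes that were lower and higher at an unadjusted p under 0.05 were 5.79% and 3.53% without HFD-STZ-DR replicate 4, and 5.88% and 3.09% without HFD-DR replicate 5 as well. They were 1.06% and 0.715% with the adipocyte covariate, 1.75% and 2.06% with the muscle covariate, and 2.78% and 1.26% with runs of consecutive library numbers as a block. Of these runs, 6 held 1 sample of each group.

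Markers of fat and muscle varied widely among nerves of both groups. All 12 adipocyte markers, of which the most abundant was Car3 (mean 14.71), had lower means in HFD-STZ-DR, with a median difference of -1.05, and 4 had an unadjusted p under 0.05. Their mean log2 value ran from 8.21 through a median of 10.41 to 11.07 in HFD-STZ-DR samples and from 9.88 through 11.62 to 12.53 in HFD-DR samples. The log2 of their summed level was 13.3, 15.71 and 16.98 (lowest, median, highest) in the former and 14.62, 16.74 and 17.79 in the latter. HFD-STZ-DR replicate 2 was far below the other nerves, and the groups overlapped, though within each of the 6 runs the HFD-STZ-DR sample had the lower mean. With the runs as a block 11 of the 12 were lower at an unadjusted p under 0.05 (median -0.99), while 4 were without HFD-STZ-DR replicate 4 (median -1.15) and 4 without HFD-DR replicate 5 too (median -1.03). Among these genes, Cidea, a lipid droplet protein that is abundant in brown fat, had the lowest difference, -2.33 (95% interval -4.02 to -0.63, exact permutation p = 0.028). Cidea was highest in HFD-DR replicates 4 and 2, though replicate 2 had the lowest mean of all adipocyte markers in HFD-DR, 9.88. Pck1, which makes the glycerol backbone of triglycerides in adipocytes, differed by -1.47 (-2.62 to -0.32, exact permutation p = 0.0256). Fewer adipocytes and less RNA per adipocyte cannot be told apart in a bulk sample, and the same holds for every cell type below. In nerves of the SD mice of the same age Pck1 had a mean of 12.24 ± 0.76 (SD, n = 8), against 11.81 ± 0.97 (SD, n = 7) in HFD-DR and 10.34 ± 1.22 (SD, n = 6) in HFD-STZ-DR.

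Of the 14 skeletal muscle markers 13 were tested and 13 had lower means in HFD-STZ-DR, with a median difference of -1.91, while 0 had an unadjusted p under 0.05. Their mean log2 value was 6.49, 8.85 and 15.07 (lowest, median, highest) in HFD-STZ-DR and 8.01, 11.95 and 14.5 in HFD-DR, and the log2 of the sum was 11.16, 13.88 and 20.46 against 13.13, 17.18 and 19.83. Acta1, the actin of skeletal muscle fibres, was the most abundant, with values from 7.34 to 18.49 in HFD-STZ-DR and from 10.91 to 18.26 in HFD-DR. The spread within each group was thus larger than the distance between them. Without HFD-STZ-DR replicate 4 the median difference was -3.14 and 10 markers had an unadjusted p under 0.05, and without HFD-DR replicate 5 as well these were -2.56 and 8. The mean was lower in HFD-STZ-DR in 4 of the 6 runs, and with the runs as a block 5 markers were lower at that p (median -2.12). No marker of either list was at 0 in all samples.

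**Figure D1:**
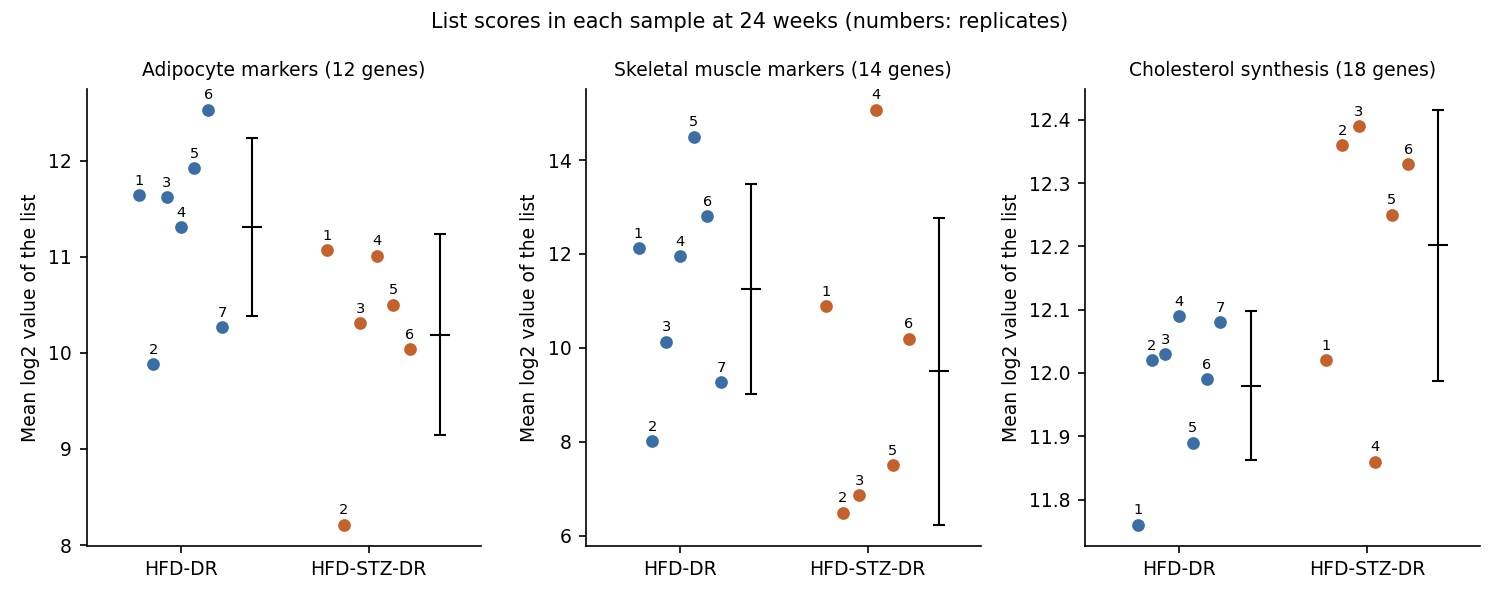
Mean log2 value of 3 gene lists (y axis) in each HFD-DR (blue, n = 7) and HFD-STZ-DR (orange, n = 6) sample, with the replicate number above each point and the mean ± SD as a black bar. HFD-STZ-DR replicate 2 has the lowest adipocyte value (8.21), replicate 4 the highest muscle value (15.07) and the lowest cholesterol synthesis value of its group (11.86).

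Of the genes with the smallest p, 3 serve lipid droplets or fatty acid breakdown and were lower in HFD-STZ-DR. Plin2 (chr4:86648386-86670060, minus strand), which coats lipid droplets in most cell types, had log2 values from 11.42 through a median of 11.57 to 11.66 in HFD-STZ-DR and from 11.59 through 11.95 to 12.2 in HFD-DR. Its means were 11.56 ± 0.09 (SD, n = 6) and 11.91 ± 0.19 (SD, n = 7), a difference of -0.36 (95% interval -0.54 to -0.17, exact permutation p = 0.0035). The HFD-DR samples reached higher, and the groups overlapped through HFD-DR replicate 2, the sample with the lowest adipocyte marker value of its group. Pnpla3 (chr15:84167837-84187236, plus strand), a lipase and acyltransferase of the droplet surface, ranged from 6.8 through 7.41 to 8.24 in HFD-STZ-DR and from 7.49 through 8.72 to 9.69 in HFD-DR. It differed by -1.23 (-1.93 to -0.53, exact permutation p = 0.00932). Acaa1b (chr9:119148023-119157093, minus strand), a peroxisomal thiolase of fatty acid breakdown, had values from 5.66 through 6.05 to 6.53 in HFD-STZ-DR against 6.3 through 7.18 to 7.96 in HFD-DR, a difference of -0.98 (-1.49 to -0.48, exact permutation p = 0.00291). For both genes HFD-DR replicates 2 and 7 were the lowest of their group and no higher than the highest HFD-STZ-DR sample, while the other 5 lay above it. With the adipocyte marker value as a covariate the differences were -0.21 for Plin2, -0.58 for Pnpla3 and -0.54 for Acaa1b. Part of the Acaa1b transcript (18.8% of its 100-base stretches) also occurs in other genes, so its level is uncertain.

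Of 18 genes of fatty acid and triglyceride synthesis, 14 were lower and 4 higher in HFD-STZ-DR, with a median of -0.2, and 7 had an unadjusted p under 0.05, all of them lower. They included enzymes of the last steps of triglyceride assembly. Dgat1, which adds the last acyl chain, had log2 values from 10.22 through 10.3 to 10.61 in HFD-STZ-DR and from 10.45 through 10.56 to 10.88 in HFD-DR. Its difference was -0.28 (-0.47 to -0.1, exact permutation p = 0.00816), and only HFD-STZ-DR replicate 1 reached the HFD-DR range. Dgat2, the second enzyme of that step, differed by -0.91 (-1.68 to -0.14, exact permutation p = 0.0472), with wide and overlapping groups. Agpat2, which acylates lysophosphatidic acid, differed by -0.3 (-0.5 to -0.11, exact permutation p = 0.00583) and Thrsp, a lipogenic nuclear protein, by -1.09 (-1.81 to -0.36, exact permutation p = 0.014). Scd1, the desaturase that makes monounsaturated fatty acids, had a mean of 14.75 ± 0.76 (SD, n = 6) after STZ and 15.78 ± 0.66 (SD, n = 7) without it, a difference of -1.04 (-1.79 to -0.28, exact permutation p = 0.0245). The 4 higher genes, named after their values were seen except Scd2, were Scd2, Elovl6, Srebf1 and Me1, which desaturate, lengthen or otherwise serve the making of fatty acids. With the adipocyte covariate 13 of the 18 were lower and 0 had an unadjusted p under 0.05 (median -0.16). With the muscle covariate 5 had one (median -0.24), and 6 were lower and 2 higher at that p both without HFD-STZ-DR replicate 4 (median -0.18) and without both muscle-rich samples (median -0.1).

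Among 13 tested genes of fatty acid uptake and lipolysis 10 were lower (median -0.36) and 2 had an unadjusted p under 0.05, Plin2 and Pnpla3, while with the adipocyte covariate 4 were lower (median 0.04), Plin2 and Pnpla3 again at that p. Lpl, the lipase that frees fatty acids from lipoproteins, and Cd36, a fatty acid receptor, were among the genes whose direction depended on that covariate. Lpl differed by -0.96 (-2.48 to 0.55) without it and by 0.53 with it, and Cd36 by -0.79 (-1.83 to 0.25) and 0.24. Fatty acid oxidation and ketone genes had 15 of 18 below 0 (median -0.16), 1 at unadjusted p under 0.05. That gene was Angptl4, a secreted inhibitor of Lpl, at -0.42 (-0.83 to -0.02, exact permutation p = 0.0705). Of these 18, 14 were above 0 with the adipocyte covariate. Without HFD-STZ-DR replicate 4 these counts at unadjusted p under 0.05 were 6 for uptake and lipolysis (median -0.51) and 3 for oxidation (median -0.31), and without HFD-DR replicate 5 too they were 4 (median -0.42) and 7 (median -0.21). With the runs as a block 8 genes of each list were lower at that p, Lpl among them, and the mean of each list, and of that of synthesis, was lower in HFD-STZ-DR in 6 of 6 runs.

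The 100 genes that the study itself derived from these samples as associated with nerve lipids are no independent evidence of a direction. Of them 94 were tested, Saa3 among them through its HFD-DR values alone. All 94 had lower means in HFD-STZ-DR (median -0.77) and 25, again with Saa3, had an unadjusted p under 0.05. Once the adipocyte value was a covariate, 46 were lower and 48 higher (median 0.03), 4 and 1 of them at that p. Without HFD-STZ-DR replicate 4, 34 genes were lower at that p (median -0.84), without both muscle-rich samples 30 were (median -0.8), and with the runs as a block 44 were (median -0.59). In mice on continued HFD, 82 of 99 tested genes were lower in HFD-STZ than in HFD at 24 weeks (median -0.29) and 98 of 98 at 16 weeks (median -1.15). Of the 12 adipocyte markers 6 belong to the 100. Of 8 tested genes that the study names in its text 7 were lower (median -0.7), 2 at unadjusted p under 0.05, Saa3 among them. The 8 include Ywhaz, which served the study only as a reference gene and protein loading control, and it stays in the counts that follow. Without HFD-STZ-DR replicate 4, 8 of 9 tested were lower (median -0.79), 3 at that p. Without both muscle-rich samples 8 of 9 were (median -0.68), 2 at that p. With the adipocyte covariate 3 of the 8 were lower (median 0.05), and 0 had such a p. Lipf and Pla2g2e, gastric lipase and a secreted phospholipase, had means under the minimum. Saa3, an acute phase apolipoprotein, ranged from 2.51 through 2.81 to 3.25 after STZ and from 2.83 through 3.64 to 5.11 without, a difference of -1.02. All HFD-STZ-DR values lay under the minimum and the gene was tested through its HFD-DR values, so no p is given. It stays in the counts above, which are not given without genes of that kind. Its mean was 7.12 ± 1.18 (SD, n = 7) on continued HFD and 3.39 ± 0.48 (SD, n = 8) in SD nerves, and the means of the DR groups lay on either side of the SD mean.

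**Figure D2:**
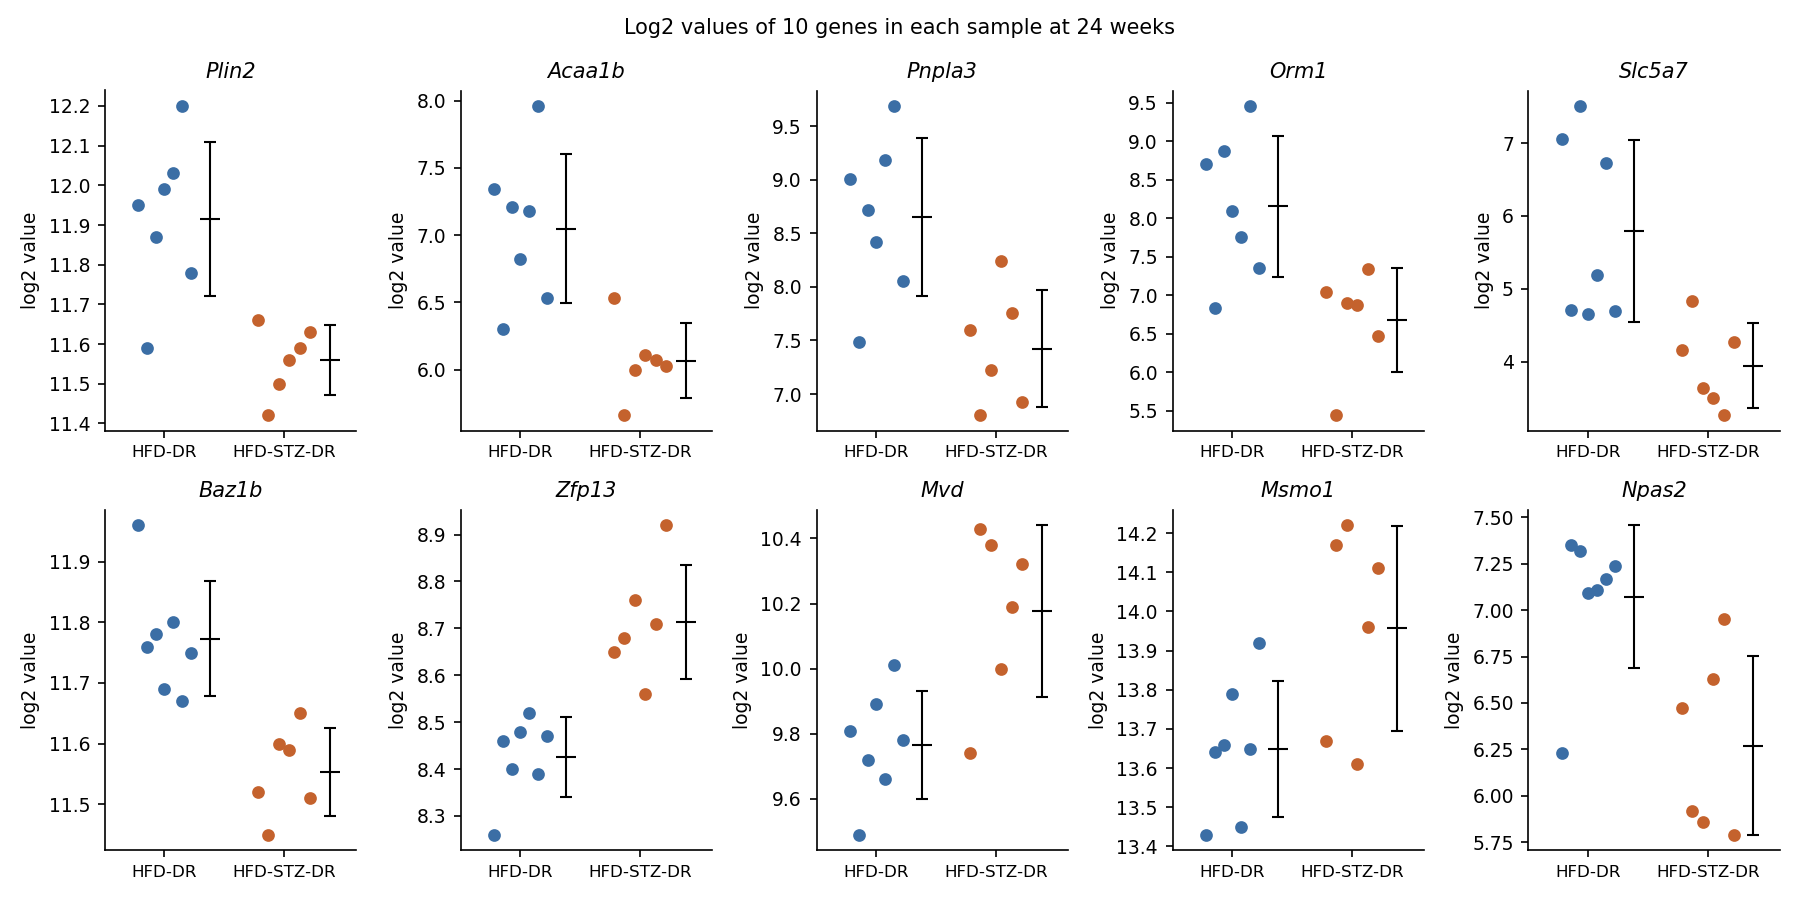
Log2 values (y axis) of 10 genes in each HFD-DR (blue, n = 7) and HFD-STZ-DR (orange, n = 6) sample, with the mean ± SD as a black bar. Points of Baz1b and Zfp13 do not overlap between groups, and the other 8 genes overlap in 1 or more samples.

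Genes of cholesterol synthesis lay on the other side of 0. All 18 had higher means in HFD-STZ-DR (median 0.21), and 8 had an unadjusted p under 0.05. The list holds the enzymes from Hmgcs1, which makes the substrate of the mevalonate pathway, to Dhcr7, which makes cholesterol, and genes under the same sterol-sensing control. Mvd (chr8:122433601-122443422, minus strand), the decarboxylase of the mevalonate pathway, is not in the list and is named for its p. It had log2 values from 9.74 through 10.25 to 10.43 in HFD-STZ-DR and from 9.49 through 9.78 to 10.01 in HFD-DR. Its means were 10.18 ± 0.26 (SD, n = 6) and 9.77 ± 0.17 (SD, n = 7), a difference of 0.41 (0.16 to 0.66, exact permutation p = 0.00874). HFD-STZ-DR replicates 1 and 4 lay within the HFD-DR range and the other 4 above it. Msmo1, a demethylase of the sterol ring, had values from 13.61 through 14.04 to 14.22 against 13.43 through 13.65 to 13.92, a difference of 0.31 (0.06 to 0.55, exact permutation p = 0.0297). The same replicates, 1 and 4, were its lowest. Fdft1, which joins farnesyl units to squalene, differed by 0.26 (0.06 to 0.46, exact permutation p = 0.0221), though 18.3% of its exonic bases overlap Ctsb on the opposite strand. Sqle, the squalene epoxidase, differed by 0.24 (0.02 to 0.45, exact permutation p = 0.042).

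The direction of this list was the same under each scaling and covariate, but its size moved with the markers of fat and muscle. Each sample's mean over the list was 11.86, 12.29 and 12.39 (lowest, median, highest) in HFD-STZ-DR and 11.76, 12.02 and 12.09 in HFD-DR, and HFD-STZ-DR replicates 1 and 4, the lowest of their group, had the highest and the next highest adipocyte values of it. The same replicates had the lowest means of their group over myelinating Schwann cell genes, 15.64 and 15.37. Whether these lists moved together was not tested. With the adipocyte covariate 16 of the 18 cholesterol synthesis genes were above 0 (median 0.09), 1 at unadjusted p under 0.05, and with the muscle covariate 17 (median 0.12), 2 at that p. Without HFD-STZ-DR replicate 4, 14 of 18 were higher at that p (median 0.28), and 13 without HFD-DR replicate 5 too (median 0.27). Within the runs of library numbers, 7 of the 18 were higher in all 6 runs, against 1.27% of all genes (1.39% were lower in all 6). The mean of the list was higher in HFD-STZ-DR in 5 of the 6, and with the runs as a block 11 genes were higher at an unadjusted p under 0.05 (median 0.22). Of 18 genes 14 were higher in HFD-STZ than in HFD at 24 weeks (median 0.11, 1 at unadjusted p under 0.05) and 15 at 16 weeks (median 0.05, 1 at that p).

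Since these genes had differences of 1 sign, promoters of 2 of them are printed, with that of a clock gene described below. RefSeq (build GRCm38.p6) gave the 250 bases before a start for 10 of the 18 genes, and the printed promoters, Lss among them, were chosen after matches and values were seen. Hmgcs1 (chr13:119690101-119690350, plus strand) is shown for its match to a sterol regulatory element (TCACNCCAC) and for 3 CCAAT boxes, and Lss (chr10:76531355-76531604, plus strand), lanosterol synthase, for 1 CCAAT box. Ciart (chr3:95882229-95882478, minus strand) is shown for 3 E-boxes (CACGTG) and holds 3 CCAAT boxes too. Capitals mark all matches to these 3 motifs on either strand, so that a CCAAT box on the other strand reads ATTGG.
Hmgcs1: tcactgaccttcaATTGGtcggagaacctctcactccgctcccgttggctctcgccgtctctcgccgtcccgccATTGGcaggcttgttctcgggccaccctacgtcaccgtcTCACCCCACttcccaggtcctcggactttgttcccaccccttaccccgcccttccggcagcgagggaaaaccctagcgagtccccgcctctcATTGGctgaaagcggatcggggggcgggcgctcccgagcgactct
Lss: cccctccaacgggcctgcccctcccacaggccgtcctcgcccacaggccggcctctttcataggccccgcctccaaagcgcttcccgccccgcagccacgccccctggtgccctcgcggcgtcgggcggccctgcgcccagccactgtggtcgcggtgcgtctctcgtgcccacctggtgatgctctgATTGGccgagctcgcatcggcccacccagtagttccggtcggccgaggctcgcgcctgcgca
Ciart: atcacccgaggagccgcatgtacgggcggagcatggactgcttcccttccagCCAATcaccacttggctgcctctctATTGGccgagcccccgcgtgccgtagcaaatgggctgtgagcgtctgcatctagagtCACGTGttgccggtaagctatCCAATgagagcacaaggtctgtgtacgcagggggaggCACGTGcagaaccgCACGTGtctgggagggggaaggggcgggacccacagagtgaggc
The Hmgcs1 window lies outside annotated exons, and 17 bases of the Lss window and 23 of the Ciart window fall in the gene's own annotated exon. The 10 cholesterol synthesis genes had 12 promoters. CCAAT was found in 10 of these 12 and in 33.8% of 32851 promoters of the same length, TCACNCCAC in 1 of the 12 and in 1.05%, and CACGTG in 3 of the 12 and in 6.02%. Of 21 promoters of 16 clock genes 6 held CACGTG and 14 held CCAAT. A match describes these letters and is no evidence of a bound factor. Hmgcs1 had means of 15.46 ± 0.26 (SD, n = 6) after STZ and 15.28 ± 0.21 (SD, n = 7) without it, and Lss 11.51 ± 0.23 (SD, n = 6) and 11.3 ± 0.12 (SD, n = 7). Both were lowest in HFD-STZ-DR replicate 4 within their group.

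Clock genes differed in both directions. Of 19, 13 had higher and 6 lower means in HFD-STZ-DR (median 0.1), and 2 in each direction had an unadjusted p under 0.05. Npas2 (chr1:39193731-39363236, plus strand), a partner of the clock activator Arntl, had values from 5.79 through 6.2 to 6.95 in HFD-STZ-DR and from 6.23 through 7.17 to 7.35 in HFD-DR, a difference of -0.8 (-1.28 to -0.31, exact permutation p = 0.0128). Apart from HFD-DR replicate 1, at 6.23, every HFD-DR sample was above every HFD-STZ-DR sample. Arntl itself, which drives the E-box genes, differed by -0.5 (-0.89 to -0.12, exact permutation p = 0.0309), with HFD-STZ-DR replicates 4 and 5 inside the HFD-DR range. Ciart, a repressor of the clock, had values from 9.08 through 9.21 to 9.33 after STZ and from 8.33 through 8.9 to 9.34 without it, a difference of 0.37 (0.06 to 0.67, exact permutation p = 0.0321). Per1, another repressor, differed by 0.3 (0.02 to 0.58, exact permutation p = 0.0554). The groups overlapped for both. With the adipocyte covariate these differences were -0.72 for Npas2, -0.51 for Arntl, 0.38 for Ciart and 0.16 for Per1. At an unadjusted p under 0.05, 3 clock genes were lower and 1 higher without HFD-STZ-DR replicate 4 (median 0.11), and 3 and 3 without both muscle-rich samples (median 0.14).

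Of 12 glucocorticoid-responsive genes 8 were above 0 (median 0.06), and 4 had an unadjusted p under 0.05, all higher in HFD-STZ-DR. Ddit4, an inhibitor of mTORC1, ranged from 10.06 through 10.35 to 10.72 in HFD-STZ-DR and from 9.59 through 9.97 to 10.32 in HFD-DR, a difference of 0.42 (0.13 to 0.7, exact permutation p = 0.0169). Tsc22d3, an anti-inflammatory mediator of glucocorticoids, differed by 0.4 (0.08 to 0.71, exact permutation p = 0.0373) and Sgk1, a kinase that regulates ion transport, by 0.35 (0.06 to 0.65, exact permutation p = 0.0367). HFD-STZ-DR replicate 5 was the highest of the 13 samples for all 3, and both groups overlapped. Per1 was the 4th gene, and Fkbp5, a feedback regulator of the receptor, was below 0 at -0.16. On continued HFD 10 of the 12 were lower in HFD-STZ than in HFD (median -0.27), 2 of them at unadjusted p under 0.05, and 11 were at 16 weeks (median -0.22), 2 at that p. The counts after DR rested in part on HFD-STZ-DR replicate 4. When it was left out, 6 of the 12 were above 0 (median 0.06), 2 were higher and 1 lower at that p, and the counts were the same without both muscle-rich samples (median 0.03). With the adipocyte covariate 2 were higher at that p (median 0.06), and with the runs as a block 2 (median 0.01).

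Acute phase genes lay mostly below 0, and macrophage markers did so unless both muscle-rich samples were left out. Of 13 tested genes of acute phase and sterile inflammation 12 were lower (median -0.24). Apart from Saa3, which passed the minimum through HFD-DR alone, 11 of 12 were lower and 1, Orm1, had an unadjusted p under 0.05. With Saa3, 11 genes were below 0 without HFD-STZ-DR replicate 4 (median -0.2), 12 without both muscle-rich samples (median -0.23) and 11 with the adipocyte covariate (median -0.12). With the runs as a block 5 genes of this list, Saa3 among them, were lower at unadjusted p under 0.05 (median -0.13). The mean of the list was lower in HFD-STZ-DR in 5 of the 6 runs. Orm1 (chr4:63344560-63348163, plus strand), an acute phase glycoprotein of plasma that adipocytes also make, had values from 5.44 through 6.89 to 7.34 in HFD-STZ-DR and from 6.83 through 8.09 to 9.46 in HFD-DR. Its difference was -1.47 (-2.34 to -0.6, exact permutation p = 0.00874), and -0.67 with the adipocyte covariate. HFD-DR replicate 2 lay within the HFD-STZ-DR range, replicate 7 just above it and the other 5 further above. Haptoglobin (Hp), which binds free haemoglobin, differed by -1.14 (-2.37 to 0.1) and by 0.12 with that covariate. Of 17 macrophage markers, of which the most abundant was Cd9 (mean 17.11), 13 were lower (median -0.15) and 3 had an unadjusted p under 0.05. These were Mrc1, the mannose receptor of resident macrophages, at -0.36 (-0.66 to -0.05, exact permutation p = 0.0437), Lyve1, of perivascular ones, at -0.47, and Itgax, an integrin, at -0.42. Given the adipocyte covariate, 10 of the 17 were lower (median -0.06) and 0 had such a p by limma, with Mrc1 at -0.24, Lyve1 at -0.18 and Itgax at -0.26. Without HFD-STZ-DR replicate 4, 0 of the 17 had such a p by limma and 13 were lower (median -0.06), and without both muscle-rich samples 0 had it, 8 were lower and 9 higher (median 0.01). The mean log2 value of the markers was 9.41, 9.72 and 9.9 in HFD-STZ-DR and 9.57, 9.98 and 10.22 in HFD-DR (lowest, median, highest). The log2 of their summed level was 17.13, 17.43 and 17.61 against 17.11, 17.29 and 17.54, but Cd9, which Schwann cells express too, made up 79.8% to 90.4% of that sum. Siglec1, a sialic acid receptor of macrophages outside that list, had values from 6.93 through 7.14 to 7.27 and from 7.27 through 7.72 to 7.97, a difference of -0.52 (-0.8 to -0.24, exact permutation p = 0.00408). HFD-DR replicates 2 and 4 were its lowest without STZ, and the groups met at 7.27.

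Interferon-stimulated genes were evenly divided, with 9 of 18 below 0 (median 0) and 2 at unadjusted p under 0.05, the GTPase Gbp2 at -0.26 (-0.4 to -0.11, exact permutation p = 0.0035) and the chemokine Cxcl9 at -0.81 (-1.57 to -0.04, exact permutation p = 0.0653). With each sample centred on its median, 7 of these 18 were below 0, as were 7 without HFD-STZ-DR replicate 4 (median 0.04) and 8 without both muscle-rich samples (median 0.02), with 2 at that p in each of the latter. On continued HFD 16 of the 18 were higher in HFD-STZ than in HFD (median 0.28), 9 of them at unadjusted p under 0.05. Counts below 0 were 8 of 11 for MHC class II and immunoproteasome genes (median -0.05), 5 of 8 for neutrophil markers (-0.09), 5 of 7 for T and NK cell markers (-0.07), 7 of 7 for B and plasma cell markers (-0.23), 4 of 9 for mast cell markers (0.02) and 5 of 6 for red blood cell markers (-0.04), with 0 genes at unadjusted p under 0.05 in each. Of the B and plasma cell markers, Igha passed the minimum through HFD-DR alone, so its direction was fixed by that filter. Its means were 2.98 after STZ and 4.73 without it. The most abundant gene was Mmp9 among neutrophil markers, Trac among T and NK cell markers, Ighm among B and plasma cell markers, Tpsb2 among mast cell markers and Hbb-bs among red blood cell markers. Medians without HFD-STZ-DR replicate 4, and without both muscle-rich samples, were 0.02 and 0.04 for MHC class II and immunoproteasome genes and 0.18 and 0.18 for neutrophil markers, both above 0. They were -0.04 and -0.05 for T and NK cell markers, -0.32 and -0.31 for B and plasma cell markers, -0.08 and 0.04 for mast cell markers and -0.15 and -0.11 for red blood cell markers. In the same order, 6 and 4 of the 7 B and plasma cell markers were below 0, 1 and 2 of them at unadjusted p under 0.05. Of the MHC class II and immunoproteasome genes, 1 was higher at that p without HFD-STZ-DR replicate 4. The adipocyte covariate moved the medians of these 6 lists to 0.03, -0.37, 0.09, -0.07, 0.5 and 0.07, with 3 of the 9 mast cell markers higher at unadjusted p under 0.05. Of the 7 B and plasma cell markers 4 were below 0 with it. On continued HFD 9 of 9 mast cell markers were lower in HFD-STZ (median -0.69), 6 at that p.

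Among the cells of the nerve itself the differences were small. Of 20 myelinating Schwann cell genes 19 were above 0 (median 0.1), 20 with each sample centred on its median and 2 with the adipocyte covariate (median -0.05), and 0 had an unadjusted p under 0.05 by limma. All 20 were above 0 without HFD-STZ-DR replicate 4 (median 0.17) and without both muscle-rich samples (median 0.14). Pmp22 had means of 20.18 ± 0.21 (SD, n = 6) after STZ and 19.99 ± 0.17 (SD, n = 7) without it, a difference of 0.19 (-0.19 to 0.56, exact permutation p = 0.104). Gldn, which gathers sodium channels at nodes of Ranvier, differed by 0.22 (-0.07 to 0.51, exact permutation p = 0.154). It was higher in HFD-STZ-DR in 6 of 6 runs. With the runs as a block it differed by 0.21, without HFD-STZ-DR replicate 4 by 0.3 and with the adipocyte covariate by 0.03. In the first 2 of these settings it was the 1 gene of the list with an unadjusted p under 0.05 by limma. Of 16 tested genes of repair and immature Schwann cells 11 were below 0 (median -0.04), 8 without HFD-STZ-DR replicate 4 (median -0.02) and 11 without both muscle-rich samples (median -0.06). The gene with an unadjusted p under 0.05 was Jun, the transcription factor of the repair programme after injury, with values from 11.84 through 12.01 to 12.13 in HFD-STZ-DR and from 12 through 12.23 to 12.41 in HFD-DR. It differed by -0.24 (-0.41 to -0.07, exact permutation p = 0.0128), and HFD-DR replicates 4 and 5 lay within the HFD-STZ-DR range.

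Of 17 neuronal transcripts 1 was under the minimum and 8 were left out for values above 22 in HFD-STZ replicate 7 at 24 weeks, a sample outside this comparison. The rest were divided, 4 of 8 on each side of 0 (median 0.02, and -0.09 and -0.1 without HFD-STZ-DR replicate 4 and without both muscle-rich samples), and the lowest was Slc5a7. This choline transporter (chr17:54273590-54299034, minus strand) supplies cholinergic terminals, and had values from 3.26 through 3.9 to 4.83 in HFD-STZ-DR and from 4.66 through 5.19 to 7.51 in HFD-DR. Its difference was -1.85 (-2.92 to -0.77, exact permutation p = 0.00583). HFD-DR replicates 1, 3 and 6 were well above the other 10 samples, and the remaining HFD-DR samples were near the highest HFD-STZ-DR sample, replicate 2. On continued HFD the mean was 8.86 ± 1.24 (SD, n = 7), and with STZ as well it was 8.27 ± 1.46 (SD, n = 8), while mice on the control diet throughout had 4.65 ± 0.74 (SD, n = 8). Of 11 endothelial markers (most abundant Vwf, mean 12.89) 9 were lower (median -0.18), 2 at unadjusted p under 0.05, the VEGF receptors Flt1 at -0.23 (-0.43 to -0.03, exact permutation p = 0.0338) and Kdr at -0.18 (-0.34 to -0.02, exact permutation p = 0.0332). With the adipocyte covariate 0 of the 11 had such a p by limma (median -0.04), and without HFD-STZ-DR replicate 4, 4 did (median -0.18). Without both muscle-rich samples 1 did (median -0.18), and with the runs as a block 6 did (median -0.2), the mean being lower in HFD-STZ-DR in 6 of 6 runs. Counts below 0 were 8 of 9 for pericyte and smooth muscle markers (median -0.11), 6 of 6 for perineurial markers (-0.14), 12 of 16 for fibroblast and matrix genes (-0.14), 4 of 5 for lymph node and epidermis markers (-0.29) and 7 of 14 for ion channels of the nerve (0.01), with 0 genes at unadjusted p under 0.05 in each. Perineurial markers were above 0 in 5 of 6 genes without HFD-STZ-DR replicate 4 (median 0.07) and in 6 of 6 without both muscle-rich samples (median 0.13). In the same order the medians were -0.48 and -0.36 for pericyte and smooth muscle markers, -0.05 and -0.03 for fibroblast and matrix genes, -0.43 and -0.55 for lymph node and epidermis markers and 0.01 and -0.05 for ion channels. At unadjusted p under 0.05, 2 and 1 pericyte and smooth muscle markers were lower in these settings. Of fibroblast and matrix genes and of ion channels, 1 each was higher in both. Without both muscle-rich samples 1 lymph node and epidermis marker was lower at that p. Pericyte and smooth muscle markers turned direction with a covariate, 0 of 9 being below 0 with that of adipocytes (median 0.28) and 1 with that of muscle (median 0.25). Adipocyte covariate medians were -0.01 for perineurial markers, -0.06 for fibroblast and matrix genes, -0.02 for lymph node and epidermis markers and -0.09 for ion channels.

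Lists tied to glucose and to cell stress had medians between -0.16 and 0.09. Glucose-responsive and glucose-handling genes had 12 of 15 below 0 (median -0.15) and 0 at unadjusted p under 0.05, and with the adipocyte covariate 6 of 15 were below 0. Without HFD-STZ-DR replicate 4, 5 of them were lower at that p (median -0.22), and 2 without both muscle-rich samples (median -0.18). Of 9 tested polyol, hexosamine and glycation genes 4 were below 0 (median 0.09), 2 with each sample centred, and 1 had an unadjusted p under 0.05, Gfpt2, an entry enzyme of the hexosamine pathway, at -0.44 (-0.84 to -0.03, exact permutation p = 0.0583). Insulin and IGF signalling genes had 10 of 19 below 0 (median -0.04). Oxidative stress response genes had 4 of 17 below 0 (median 0.05), unfolded protein response genes 8 of 14 (-0.01; 6 with each sample centred) and immediate early genes 10 of 14 (-0.16), with 0 at unadjusted p under 0.05 in each of these 4 lists. Of 20 p53 target and DNA damage genes 8 were below 0 (median 0.04), and 1 was higher at that p, Sesn1, a stress-inducible inhibitor of mTORC1, at 0.19 (0.01 to 0.37, exact permutation p = 0.039). Oxidative phosphorylation genes were below 0 in 11 of 16 (median -0.03), in 7 with each sample centred and in 0 with the muscle covariate, and cell cycle genes in 8 of 15 (median 0) and in 5 with each sample centred. Medians without HFD-STZ-DR replicate 4, and without both muscle-rich samples, were 0.07 and 0.06 for polyol, hexosamine and glycation genes, -0.06 and -0.03 for insulin and IGF signalling, 0.09 and 0.1 for oxidative stress and 0.01 and 0.01 for unfolded protein response genes. They were -0.11 and -0.16 for immediate early genes, -0.01 and 0.03 for p53 targets, -0.27 and -0.09 for oxidative phosphorylation, with 16 of 16 genes below 0 in both, and 0.05 and -0.05 for cell cycle genes. The medians of these 8 lists with the adipocyte covariate, in the same order, were 0.02, 0.02, 0.03, -0.03, -0.06, 0.09, 0.23 and 0.05.

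**Figure D3:**
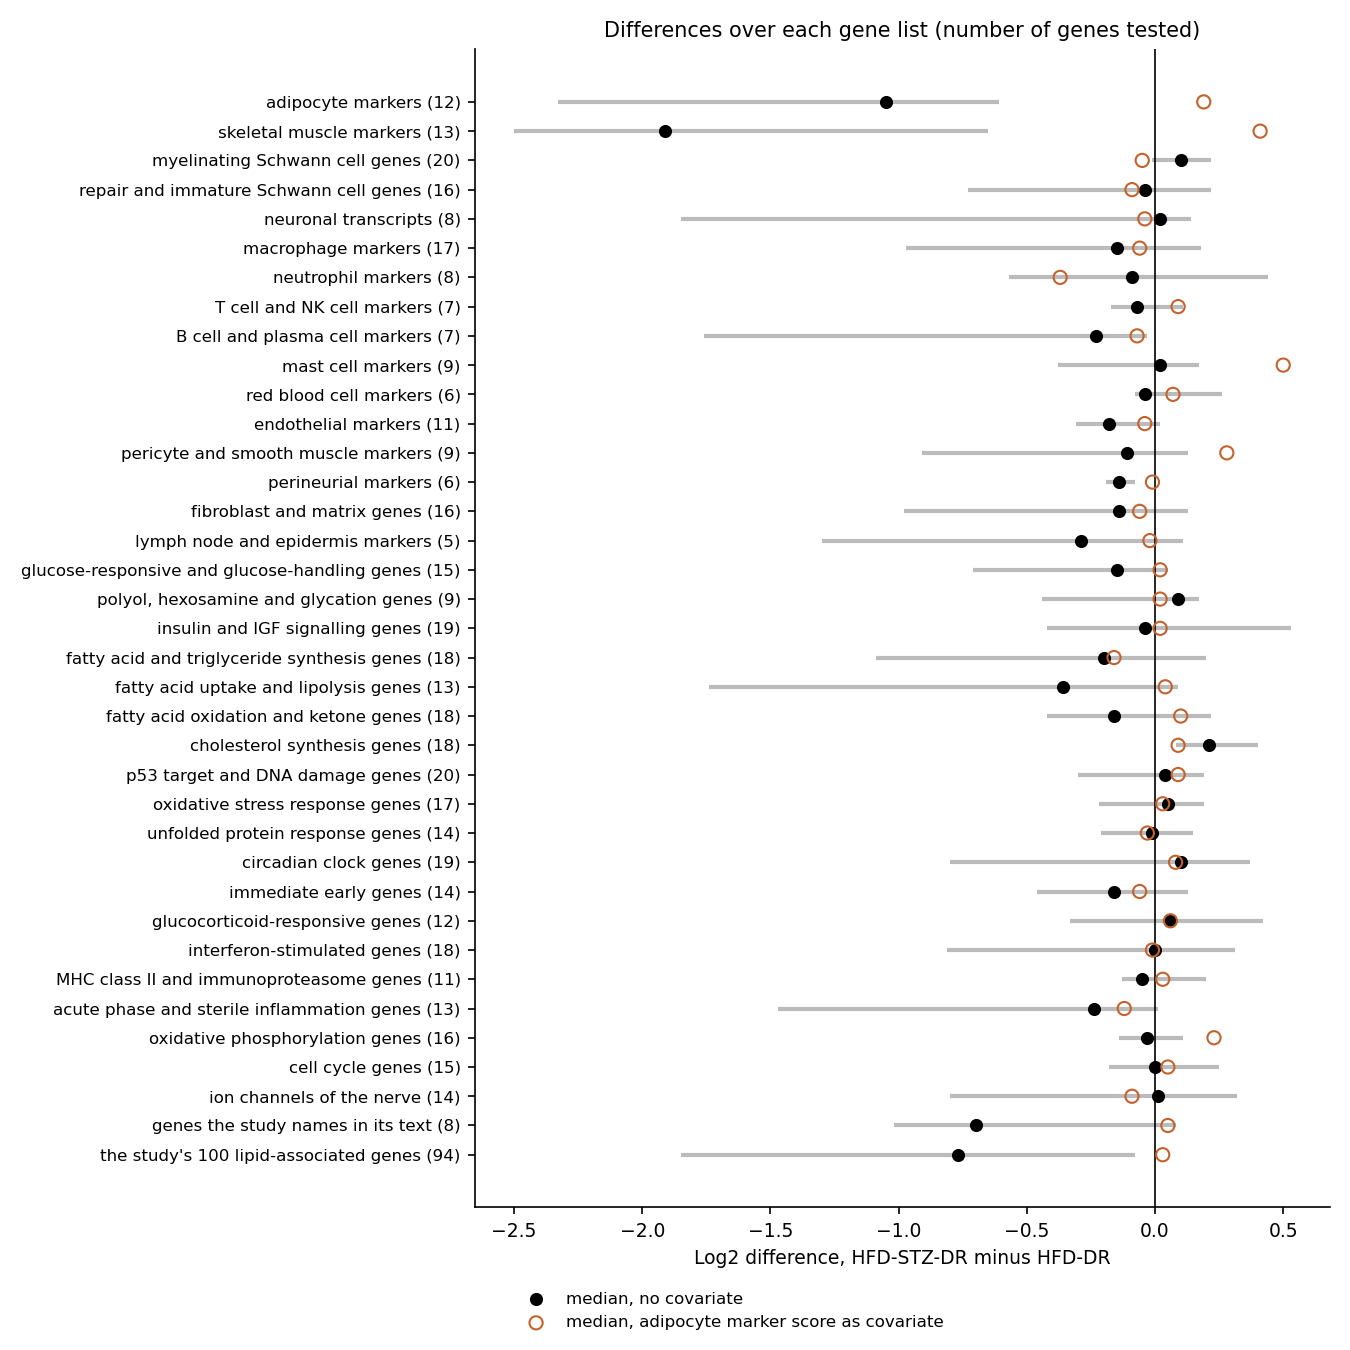
Log2 difference, HFD-STZ-DR minus HFD-DR (x axis), for 37 gene lists (y axis, number of genes tested in brackets). Grey lines run from the lowest to the highest gene, black points are medians, and open circles are medians with the adipocyte marker value of each sample as a covariate. The lowest medians belong to skeletal muscle markers (-1.91) and adipocyte markers (-1.05), and the median of cholesterol synthesis genes is 0.21.

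Groups did not overlap for 6 genes that were lower in every HFD-STZ-DR sample (0.033% of those tested) and for 5 that were higher (0.0275%). Whether these small shares are any excess was not tested. The lower genes were 4930444A19Rik, Baz1b, C430014B12Rik, Syt17, Gys2 and Rflnb, and the higher ones Zfp13, Mak16, Ing3, Glmn and Hspa2. Of these C430014B12Rik, Syt17, Gys2, Rflnb, Ing3, Glmn and Hspa2 are named because of their values. Baz1b (chr5:135187264-135246129, plus strand), a chromatin remodelling subunit, had log2 values from 11.45 through 11.56 to 11.65 in HFD-STZ-DR and from 11.67 through 11.76 to 11.96 in HFD-DR, a difference of -0.22 (-0.34 to -0.1, exact permutation p = 0.00117). Zfp13 (chr17:23575844-23599487, minus strand), a zinc finger protein, had values from 8.56 through 8.69 to 8.92 and from 8.26 through 8.46 to 8.52, a difference of 0.29 (0.12 to 0.46, exact permutation p = 0.000583, the smallest that the 1716 splits of 13 samples can give). The gap between groups was narrow in both genes. Both, and Mak16 as well, were named for a small p among 18192 genes, so their small permutation p-values follow from that choice. Adjusted over all genes, p was 0.999 for Baz1b and for Zfp13. Mak16, of ribosome assembly, differed by 0.23 (0.07 to 0.4, exact permutation p = 0.00117), but 39.4% of its exonic bases overlap Tti2 on the opposite strand, so that reads of the 2 genes may not be told apart. The antisense RNA 4930444A19Rik passed the minimum through HFD-DR, so that 5 lower genes remain without it. Its mean was below the minimum in HFD-STZ-DR, where replicate 5 alone was above it, at 3.06 ± 0.19 (SD, n = 6) against 3.67 ± 0.18 (SD, n = 7), and 14% of its exonic bases overlap Ankrd44.

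The remaining genes with the smallest p in each direction had varied roles. Lower in HFD-STZ-DR were Adam12, a metalloprotease of tissue remodelling, at -0.6 (-0.93 to -0.27, exact permutation p = 0.00408), March3, a ubiquitin ligase, at -0.58 (-0.91 to -0.26, exact permutation p = 0.00583), Ina, a neurofilament subunit, at -0.79 (-1.21 to -0.38, exact permutation p = 0.00233) and Lilra6, a leukocyte receptor, at -0.67 (-1.06 to -0.29, exact permutation p = 0.00175). The groups overlapped through HFD-STZ-DR replicate 3 for Adam12 and replicate 5 for Ina. Higher were Pik3ip1, an inhibitor of PI3 kinase, with values from 13.04 through 13.26 to 13.35 in HFD-STZ-DR and from 12.92 through 13.03 to 13.08 in HFD-DR. It differed by 0.22 (0.09 to 0.34, exact permutation p = 0.00233), and HFD-STZ-DR replicate 4 alone lay within the HFD-DR range. Also higher were Zfp930, Zfp825, Vstm2b, Rnf149, Gm17597, Mlph and Chn2, by 0.2 to 0.54. Exons of other genes overlap 24.9% of the exonic bases of Rnf149, 17.3% of Gm17597, 14.1% of Ina, 10.6% of Chn2 and 8.08% of Vstm2b. The same holds for 24.9% of Adrb3, 12.1% of Hmgcs1, 11.4% of Acaa1b, 7.28% of Jun and 6.78% of Pnpla3. Of the 100-base stretches of Zfp825, Lilra6 and Ciart, 13.3%, 11.1% and 10.5% also occur in other genes, and reads from any of these stretches may not be told apart.

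The same STZ contrast in mice that stayed on HFD asks how far the difference after DR was already there without it. HFD-STZ and HFD samples at 24 weeks, of which the comparison above uses none, differed by limma in 0 of 18121 genes at adjusted p under 0.05 (smallest adjusted p = 0.785), and 1014 (5.6%) had an unadjusted p under 0.05, with 4.17% of genes lower and 1.42% higher in HFD-STZ at that p and 52.1% of all differences below 0 and 47.9% above. HFD-STZ replicate 7 stood apart, with a mean correlation of 0.94 with its group against 0.974 or more for the other 7, and held 23 of the 25 values above 22 in the series. When it was left out, 0 genes passed by limma and 953 had an unadjusted p under 0.05. Of 17952 genes tested in both comparisons 63.1% had a difference of the same sign. Among 636 genes at unadjusted p under 0.05 after DR, 74.8% had it, and 48 had such a p in both with the same sign, 42 lower and 6 higher after STZ, against 2 with opposite signs. The 42 include Gm10717, Gm10718, Gm10719, Gm10722, Gm10800, Gm10801, Gm11168, Gm21738 and Gm26870, named after their values were seen. Their differences were close, from -1.28 to -1.09 after DR and from -2.03 to -1.7 on continued HFD. Whether they are separate signals was not tested. Adam12 was -1.03 (-1.84 to -0.22) on continued HFD. Plin2 was -0.3 (-0.92 to 0.31), Acaa1b -0.07 (-1.12 to 0.97) and Baz1b -0.11 (-0.29 to 0.06), whose intervals include the differences after DR for Plin2, Acaa1b and Baz1b. Of 12 adipocyte markers 5 were lower on continued HFD (median 0.03).

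Whether the STZ difference with DR was another than on continued HFD was tested directly as an interaction over the 4 groups at 24 weeks. By limma 0 of 18172 genes had an adjusted p under 0.05 (smallest adjusted p = 1), and 310 (1.71%) had an unadjusted p under 0.05. These were 0.699% of genes below 0 and 1.01% above, among 49% and 51% of all genes. Without HFD-STZ replicate 7 these counts were 0 and 314. The genes below were named for a small p in the difference after DR, which is part of the interaction, so their intervals lean away from 0. The interaction was 0.83 (0.22 to 1.45) for Tsc22d3, 0.62 (0.18 to 1.07) for Per1, 0.61 (0.18 to 1.04) for Sgk1 and 0.59 (0.12 to 1.07) for Ddit4. These genes had higher means after STZ with DR and lower means after STZ without it. Larger interactions, with wider intervals, were those of Pck1 at -1.91 (-3.49 to -0.34), Adrb3, an adrenergic receptor of adipocytes, at -1.67 (-3.1 to -0.25) and Thrsp at -1.23 (-2.32 to -0.14). These 3 were lower after STZ with DR and higher without it. Jun had an interaction of -0.5 (-0.78 to -0.22), and Mlph, a linker of vesicles to myosin, of 0.8 (0.23 to 1.38). Intervals also lay on 1 side of 0 for Gbp2 at -0.41 (-0.67 to -0.14), Flt1 at -0.27 (-0.51 to -0.04), Sesn1 at 0.34 (0.06 to 0.63) and Rnf149 at 0.2 (0.05 to 0.36). At 16 weeks, before DR, 0 of 18206 genes passed by limma between HFD-STZ and HFD (smallest adjusted p = 0.246), and 889 (4.88%) had an unadjusted p under 0.05, with 2.89% of genes lower and 1.99% higher at that p and 49.4% of all differences below 0 and 50.6% above. Several lists were lower at that age too. Of 12 adipocyte markers 11 were lower in HFD-STZ (median -1.04), 4 at an unadjusted p under 0.05, and of 13 tested muscle markers 13 were (median -1.2), 1 at that p. Genes of fatty acid uptake and lipolysis were lower in 15 of 15 (median -0.92), 9 at that p, and those of the acute phase in 12 of 14 (median -0.54), 7 at that p. On continued HFD at 24 weeks the medians of these 4 lists were 0.03, -0.07, -0.13 and -0.27, with 0 genes lower at that p by limma in each. Plin2 differed by -0.68 (-1.12 to -0.23) at 16 weeks, Acaa1b by -1.14 (-2 to -0.28), Pnpla3 by -1.42 (-2.47 to -0.37), Adam12 by -0.72 (-1.41 to -0.04) and Baz1b by -0.02 (-0.12 to 0.08). Whether these differences at 16 weeks were other than those after DR was not tested.

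**Figure D4:**
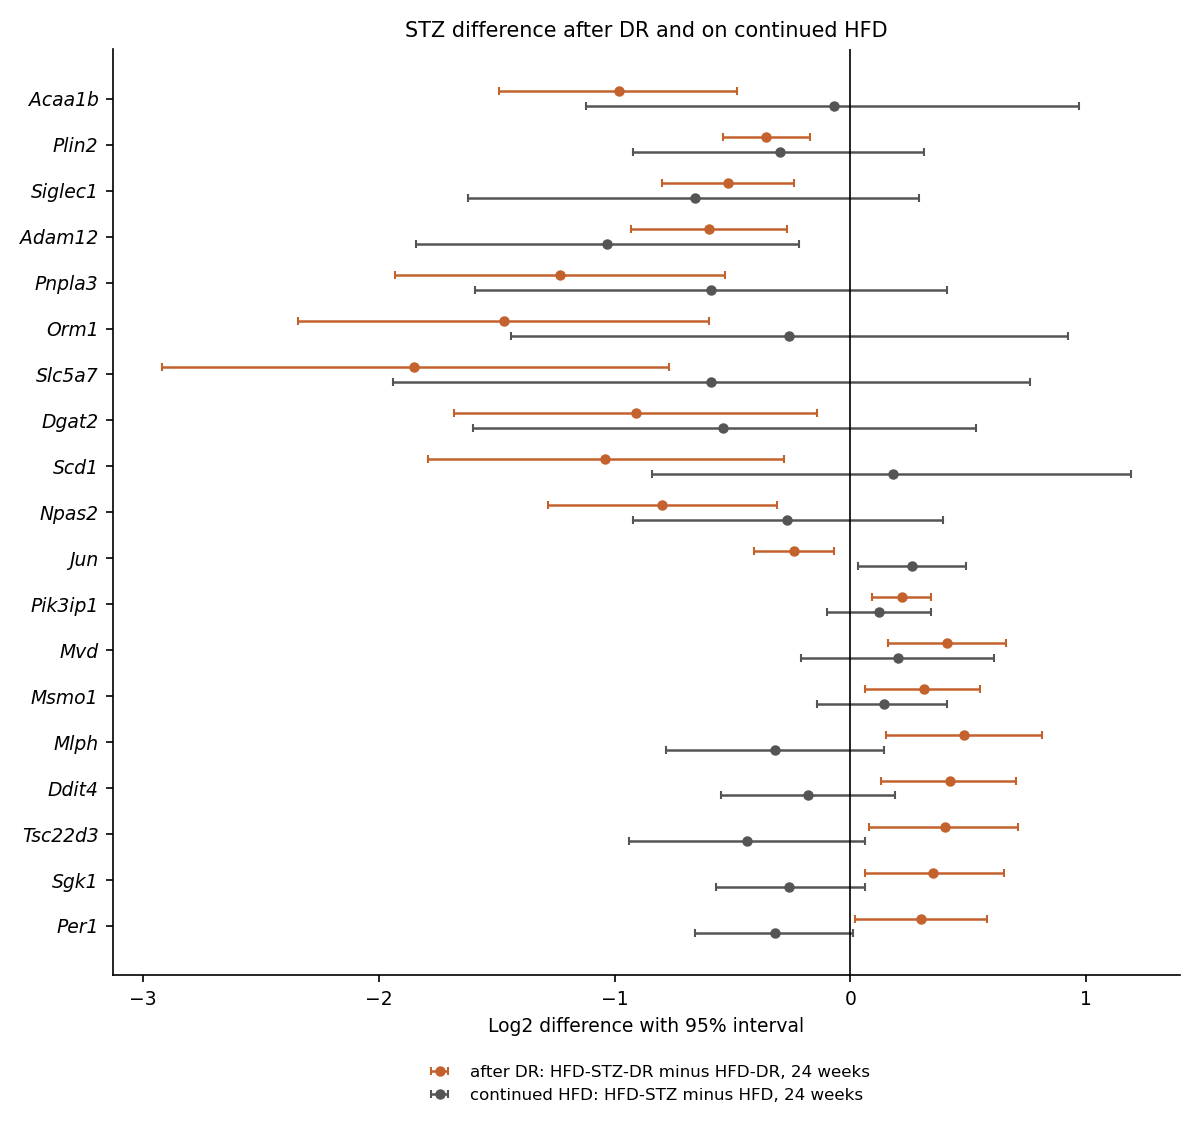
Log2 difference with 95% interval (x axis) of 19 genes (y axis) between mice with and without STZ at 24 weeks, after DR (orange, HFD-STZ-DR minus HFD-DR, n = 6 and 7) and on continued HFD (grey, HFD-STZ minus HFD, n = 8 and 7). The points of Tsc22d3, Sgk1, Per1, Ddit4 and Mlph lie above 0 after DR and below 0 on continued HFD, and those of Jun and Scd1 the other way round.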

How the data were processed

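RNA of mouse sciatic nerve was sequenced in 53 samples of 8 groups. The deposited values are log2 expression values per gene, normalised by the authors in a way the sources used here do not state, and they are not counts. The study's methods name FPKM (fragments scaled to transcript length and library size) as its expression measure, and the sources do not say whether the deposited values are FPKM. The submitters' processing notes name HISAT2, featureCounts, DESeq2 and the build mm10, with no versions. The study's methods give a nominal read depth for all samples, but the files used here hold no read numbers.

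Differences were tested here in R 4.3.3 with limma 3.58.1 (variance prior following mean expression, 2-sided, Benjamini-Hochberg over all genes tested, threshold 0.05), with genes of a mean of at least the log2 of 10 in the samples fitted. The 25 genes with a value above 22 in any sample were left out. Single genes were also given a 2-sided exact permutation test over 1716 splits, whose smallest p is 0.000583. Its p is not adjusted for the number of genes, and it is small by selection in genes named for a small p. The statistics were tested on simulated data, and no result of that test is given or used here. Figures and sequences were made with Python 3.11.15, numpy 2.4.6 and matplotlib 3.10.9. Gene positions are those of GENCODE M21 on GRCm38. Promoters came from RefSeq.

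Genes are named by a rule: the 12 with the smallest p in each direction, genes in the study's text, and from each of 37 lists up to 4 members with the smallest p and the most abundant member. Other genes that this rule names count in their lists, and their values are not reported here. Ucp1, Lss and Gys2, and others said to be so in the text, were named after their values were seen. Members and lists were chosen with earlier results of these data known, and exploratory runs preceded the final fits. The promoters and motifs printed were picked after matches were seen. In all, 8 motifs were searched: besides the 3 printed, a looser sterol element (TCACNCNAC, in 2.26% of promoters), 2 longer sterol elements (0.0731% and 0.499%), a direct repeat (0.0335%) and a glucocorticoid element (0.00913%). In the cholesterol list the looser element was found in 2 promoters and the other 4 in 0.

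Alternatives were no filter, the minimum in every sample, all 8 groups in 1 fit, runs of consecutive library numbers as a block, robust or untrended priors, genes above 22 kept, centred samples, sample weights, adipocyte or muscle markers as covariates, and each sample left out. Both covariates together, both muscle-rich samples left out, and the unadjusted count were chosen after seeing the data. Samples of the SD group at 16 weeks were not compared.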

Additional observations from a re-analysis of the deposited data

Results flagged for a closer look

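Of 218 groups of samples examined (genes and lists in each of the 2 groups), 14 held a sample whose gap to the nearest other sample, as a share of the group's range, was above Dixon's 95% critical value, which by construction chance exceeds in about 1 of 20 groups. In HFD-STZ-DR replicate 2 the lowest values were 5.13 for Adrb3 (next 6.84), 7.99 for Pck1 (next 10.35), 9.03 for Hp (next 11.04) and 8.21 for the mean of adipocyte markers (next 10.04). HFD-STZ-DR replicate 4 had 11.07 for Lss (next 11.46), and HFD-STZ-DR replicate 3 had 7.25 for Adam12 (next 6.85). In HFD-DR, replicate 1 had 6.23 for Npas2 (next 7.09) and replicate 4 had 7.05 for Gys2 (next 5.46).

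Means over lists with a sample far above the others of HFD-STZ-DR were those of pericyte and smooth muscle markers (12.72, next 10.87), glucose-handling genes (12.47, next 11.56), fatty acid oxidation genes (11.51, next 10.76) and oxidative phosphorylation genes (13.98, next 12.63). In HFD-DR these were oxidative phosphorylation genes (13.79, next 13.02) and cell cycle genes (7.84, next 6.82).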

How the results depend on the processing

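The count of 0 genes at adjusted p under 0.05 in limma, with 651 at unadjusted p under 0.05, was 0 under each alternative tried, and the smallest adjusted p of any was 0.449, with runs of library numbers as a block. Leaving out each sample gave 0 to 0 genes and unadjusted counts from 348 (without HFD-STZ-DR replicate 3) to 1687 (without HFD-STZ-DR replicate 4), and 989 without HFD-DR replicate 7. The unadjusted count was 1883 with no filter, 387 with all 8 groups, 1731 with sample weights, 323 with the adipocyte covariate, 354 with both covariates and 1626 with both muscle-rich samples left out. With each sample centred on its median it was 581, split into 296 lower and 285 higher, against 382 and 269, and 43.4% of all genes were below 0. The cause was not tested.

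The interaction stayed at 0 genes by limma in each alternative, but its unadjusted count, 310, ran from 250 to 622 with each sample left out (622 without HFD-STZ-DR replicate 4). It was 1150 with no filter, 1044 with sample weights, 1271 with the adipocyte covariate (smallest adjusted p = 0.102) and 1297 with both covariates. For HFD-STZ against HFD at 24 weeks limma called 4 genes with no filter (Gm6677, Gm9023, Olfr52 and Trbv26), 1 with all 8 groups (Cck, -1.12) and 0 to 1 with each sample left out (Irf7, 0.97, without HFD replicate 4, and Gm45159, -1.78, without HFD-STZ replicate 6), against 0 (1014 at unadjusted p under 0.05). The unadjusted count was 5612 with no filter, 1563 with all 8 groups, 1938 with sample weights, 2121 with the adipocyte covariate and 742 to 1791 with each sample left out (1791 without HFD-STZ replicate 1). The genes were named after their values were seen.

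Of 1812 log2 differences of 70 genes under the alternatives, 1797 kept their direction, 15 in 8 genes did not, and 0 passed the threshold. With the adipocyte covariate Lpgat1 was 0.1, Lpl 0.53, Cd36 0.24, Plin4 0.45, Car3 0.76, Acta1 0.49, Ttn 0.29 and Hp 0.12, and with both covariates Lpgat1 was 0.11, Lpl 0.41, Cd36 0.2, Plin4 0.45, Car3 0.68, Acta1 0.01 and Hp 0.18. The files hold no read numbers, so the limits that depth sets were not computed.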

Other observations

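Ucp1, the uncoupling protein of brown and beige fat, was chosen after its values were seen. Its log2 values were 2.49 to 4.54 in HFD-STZ-DR, 9.15 in HFD-DR replicate 2, 10.38 in HFD-DR replicate 4 and 3.28 to 4.85 in the other 5 HFD-DR samples. The difference of means was -2.51, with no p given because most samples were near or under the minimum, and Cidea was highest in the same HFD-DR samples, at 9.89 in replicate 4 and 7.97 in replicate 2. Igha, an immunoglobulin heavy chain of plasma cells, was 9.79 in HFD-DR replicate 5 and 6.41 in replicate 6, against 1.99 to 4.92 in the other 11 samples. Gys2, a glycogen synthase, was 4.03 to 4.61 in HFD-STZ-DR and 4.86 to 7.05 in HFD-DR, a difference of -1.03, for which no p is given because the gene was picked for groups that do not overlap.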
